A study of Mus musculus with 12 samples.

Results

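The comparison of lungs of 24-month-old mice with lungs of 6-month-old mice covers 6 of the 12 RNA-seq libraries of a mouse lung ageing series, 3 at each of these ages, and was taken from the deposited read counts of all genes. All animals were male wild-type C57Bl/6J mice of the NCGG (an institute for geriatrics in the series' title), killed by cervical dislocation at 3, 6, 12 or 24 months, with 3 mice at each age analysed one by one. Age is the sole difference that the labels give between the groups. Polyadenylated RNA of minced lung was sequenced, so every value is a sum over epithelium, vessels, connective tissue, airway and blood-borne cells. In such bulk tissue, fewer cells of a type and less RNA per cell cannot be told apart. The labels give no sequencing date or batch, so age and any batch that ran with it cannot be told apart either.

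The lung exchanges gas across a sheet of flat type 1 cells that lies against capillary endothelium, while cuboidal type 2 cells make surfactant and renew the sheet. Resident macrophages clear inhaled particles, and lymphocytes and antibody-secreting plasma cells are sparse in young lung. In ageing mice, lymphoid cells and antibody transcripts are known to accumulate in many organs, and vessels, matrix and stem cells of the lung are known to change.

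The 6 libraries held between 14720869 and 19576255 reads in genes, and the totals of the 2 ages overlapped (exact permutation test, two-sided, p = 0.5). They differed in which genes the reads came from. Weighting the GC content of each gene by its reads gave 50.9%, 51.4% and 50.9% at the younger age and 54.6%, 54.9% and 56.2% at the older. Genes with at least 1 read numbered 20032 to 20237 at 6 months and 17533 to 18513 at 24 months, and mitochondrially encoded genes took 1.84% to 2.14% of reads at 6 months and 0.443% to 0.629% at 24 months. None of these ranges overlapped, which gives p = 0.1, the smallest value an exact test of 3 against 3 can reach. Pearson correlations of log2 CPM (the reads of a gene scaled to a common library total) were 0.987 to 0.988 among the 6-month libraries, 0.955 to 0.984 among the 24-month libraries and 0.692 to 0.847 between the ages. The library of 24-month mouse 3 stood farthest from the 6-month libraries.

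Most of the difference between the ages followed the base composition of the genes. In the decile of genes with the lowest GC content (25.7% to 42.6%) the median log2 fold change was -2.57, and 2 of 1595 genes were called higher against 1505 called lower. In the decile with the highest GC content (58.3% to 74.2%) it was 2.11, with 1511 genes called higher and 14 called lower. Each 24-month mouse showed the slope on its own: medians in the lowest and highest deciles were -2.03 and 1.44 in mouse 1, -1.94 and 1.58 in mouse 2, and -2.52 and 2.68 in mouse 3. Gene length ran alongside, from a median of 0.49 in the second-shortest decile to -1.91 in the longest. A joint smooth on GC content and length accounted for 72.5% of the variance of the log2 fold change across genes, GC content alone for 68.4% and length alone for 7.8%. The part of preparation, sequencing or tissue in this slope was not tested. Every value below is therefore given as counted and also with a correction that removes each library's own smooth on GC content and gene length, after which the medians of the GC deciles ran from -0.16 to 0.16.

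**Figure D1:**
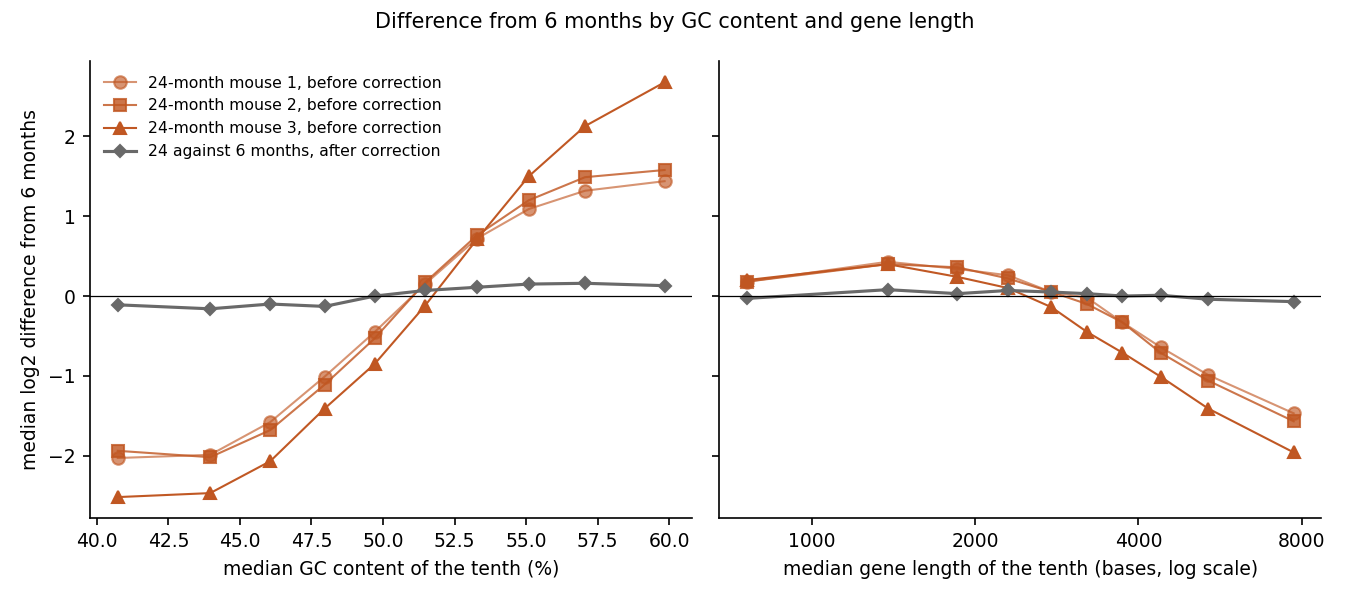
Median log2 difference from the 6-month mean of each 24-month mouse (orange, 1 line per mouse) in deciles of GC content (left) and gene length (right), with the fitted median after correction in grey. The orange lines run from -1.94 to -2.52 in genes of the lowest GC content to 1.44 to 2.68 in genes of the highest, while the grey line stays between -0.16 and 0.16.

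The base composition of some of these genes is shown here in stretches of their coding sequence. The stretches below are 60 bases from the middle of the longest coding sequence in GENCODE M21 (mm10), written 5′ to 3′ with G and C in capitals. They were picked to span the range of GC content among genes described below. Ccr2, Sirt1 and Ednrb were called lower in the uncorrected fit, Igkc, C1qa, Eng and Foxj1 higher.
Ccr2, chr9:124101950-124113557, plus strand, coding bases 529 to 588: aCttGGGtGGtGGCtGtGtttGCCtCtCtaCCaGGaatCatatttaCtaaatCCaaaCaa
Sirt1, chr10:63319005-63381704, minus strand, coding bases 1075 to 1134: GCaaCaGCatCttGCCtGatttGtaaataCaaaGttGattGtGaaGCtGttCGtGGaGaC
Ednrb, chr14:103814625-103844173, minus strand, coding bases 634 to 693: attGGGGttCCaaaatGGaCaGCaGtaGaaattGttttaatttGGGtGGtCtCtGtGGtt
Igkc, chr6:70726435-70726757, plus strand, coding bases 130 to 189: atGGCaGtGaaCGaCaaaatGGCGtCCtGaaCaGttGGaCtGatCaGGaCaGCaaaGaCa
C1qa, chr4:136895917-136898803, minus strand, coding bases 337 to 396: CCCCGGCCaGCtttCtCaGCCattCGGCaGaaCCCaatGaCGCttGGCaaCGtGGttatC
Eng, chr2:32646595-32682669, plus strand, coding bases 949 to 1008: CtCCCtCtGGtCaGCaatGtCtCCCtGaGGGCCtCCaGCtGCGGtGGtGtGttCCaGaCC
Foxj1, chr11:116330704-116335399, minus strand, coding bases 601 to 660: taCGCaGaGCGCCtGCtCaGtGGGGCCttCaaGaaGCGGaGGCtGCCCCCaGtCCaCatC
In the first 3 stretches G and C make up 41.7%, 41.7% and 40% of bases, in the last 3 they make up 58.3%, 63.3% and 65%. Over the whole coding sequence they make up 43.4% in Ccr2, 49.1% in Sirt1 and 49.6% in Ednrb. The values are 48.8% in Igkc, 58.8% in C1qa, 57.4% in Eng and 64.1% in Foxj1. Sirt1 and Ednrb thus lie above Igkc, and coding sequence alone does not separate the genes called lower from those called higher. Igkc, the constant part of the antibody kappa chain, is at 48.3% in this stretch and at 49.2% over the gene, in a decile of genes whose uncorrected median was -0.67.

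Across 16042 genes tested with edgeR's quasi-likelihood test on all 12 libraries, 13125 (81.8%) had an adjusted p under 0.05 between 24 and 6 months, 6074 higher (37.9%) and 7051 lower (44%) at 24 months. With the correction, 8456 of 15949 genes (53%) were called, 4491 higher (28.2%) and 3965 lower (24.9%). Of the 13125, 5747 (43.8%) were called in the same direction in both fits, 2863 higher and 2884 lower, while 1269 (9.67%) were called in the opposite direction with the correction and 6109 were no longer called. Of the 15949 genes in both fits these were 36% and 7.96%. The 3 mice of one age lay wholly above or below those of the other in 85.2% of genes in CPM and in 60.6% with the correction. The median log2 fold change over all genes was -0.25 without and 0.02 with the correction. It moved to -0.13 under the RLE scaling of the libraries. CPM below are scaled by TMM, edgeR's normalization, which raised the 24-month libraries by 0.74 on the log2 scale against unscaled CPM, so a rise as counted that is smaller than this would be a fall as a plain share of reads. Changes past 4-fold numbered 6073 without the correction and 835 with it, 384 higher and 451 lower. In what follows, rose or fell is written where both fits called a gene in that direction, as 18% (higher) and 18.1% (lower) of genes were. Counts of list members called higher or lower stand beside 37.9% and 44% of all genes as counted. With the correction they stand beside 28.2% and 24.9%. Log2 fold changes are 24 against 6 months with their SE, from 3 mice an age.

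Antibody genes were higher in the 24-month lungs. Of 20 tested genes for antibody constant chains and plasma cell proteins, 16 were called higher and 1 lower as counted, against 37.9% and 44% of all genes, and 15 higher and 1 lower with the correction. The list's median log2 fold change was 2.53 without and 2.26 with the correction, beside -0.25 and 0.02 over all genes. Their median GC content was 51.9%, in the decile of genes whose uncorrected median was 0.09. Immunoglobulin genes together took 0.137%, 0.058% and 0.0575% of gene reads at the younger age, against 0.437%, 0.333% and 0.360% at the older. The ages did not overlap, and 6-month mouse 1 was the highest of its age.

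Ighm, the heavy chain of IgM, was at 402, 186 and 129.7 CPM at 6 months and 2235, 1504 and 2580.2 CPM at 24 months. Every 24-month mouse was above every 6-month mouse, where 85.2% of all genes had no overlap of the ages in CPM. Ighm had a log2 fold change of 3.14 ± 0.36 (adjusted p = 1.5e-06) as counted and of 2.90 ± 0.35 (adjusted p = 1.7e-05) after correction. Igkc was at 234, 93.2 and 105 CPM at 6 months and 984, 742 and 1228 CPM at 24 months. Igkc had a log2 fold change of 2.77 ± 0.35 (adjusted p = 3.4e-06) as counted and of 1.95 ± 0.21 (adjusted p = 4.0e-06) after correction. Igha, the heavy chain of the mucosal antibody IgA, stood at 50.5, 51.1 and 32.6 CPM at 6 months and 255, 616 and 453 CPM at 24 months. Igha had a log2 fold change of 3.30 ± 0.36 (adjusted p = 8.7e-07) as counted and of 2.79 ± 0.31 (adjusted p = 8.9e-06) after correction. Of the heavy chains given here, Ighm was the highest in each old mouse, while some IgG chains were uneven among the 3. Ighg3, an IgG heavy chain, was at 3.47, 1.11 and 1.17 CPM at 6 months and 28.6, 20.9 and 290.3 CPM at 24 months, so that mouse 3 was far above the other two. Ighg3 had a log2 fold change of 5.90 ± 1.22 (adjusted p = 0.00092) as counted and of 5.40 ± 1.25 (adjusted p = 0.0059) after correction. Without 24-month mouse 3 the values were 3.71 and 3.32, both still called. Ighg1 was also highest in mouse 3, at 10.7, 1.46 and 4.36 CPM at 6 months and 23, 30.4 and 283 CPM at 24 months. Ighg1 had a log2 fold change of 4.35 ± 0.95 (adjusted p = 0.00098) as counted and of 4.16 ± 1.05 (adjusted p = 0.009) after correction, which became 2.29 and 2.10 without 24-month mouse 3. Leaving out 6-month mouse 1 gave 4.98 and 4.98 for Ighg1 and a corrected 6.08 for Ighg3, and leaving out 6-month mouse 2 gave 3.64 as counted for Ighg1. Ighe, the IgE heavy chain, was near its floor at 6 months, at 0.165, 0.151 and 0.0898 CPM at 6 months and 0.905, 0.872 and 6.79 CPM at 24 months. Its log2 fold change of 4.28 ± 0.91 (adjusted p = 0.00046) as counted and of 3.94 ± 0.93 (adjusted p = 0.0026) after correction became 2.68 and 2.34 without the same mouse. Ighg2b was at 32.4, 1.86 and 24.7 CPM at 6 months and 273, 144 and 196 CPM at 24 months, with 6-month mouse 2 far below its 2 age mates. Its log2 fold change of 3.38 ± 0.84 (adjusted p = 0.0024) as counted and of 3.45 ± 0.91 (adjusted p = 0.011) after correction became 2.62 and 2.88 without that mouse. Ighg2c showed the same gap at 6 months, at 53.6, 1.71 and 39.4 CPM at 6 months and 185, 244 and 212 CPM at 24 months, and was called in neither fit. Ighg2c had a log2 fold change of 2.76 ± 1.20 (adjusted p = 0.055) as counted and of 2.12 ± 1.11 (adjusted p = 0.14) after correction.

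Other members of the list, which are not antibody heavy or light chains, were mixed. Mzb1, an endoplasmic reticulum protein of B and plasma cells, was at 8.97, 4.99 and 4.76 CPM at 6 months and 52.6, 48.4 and 134 CPM at 24 months. Mzb1 had a log2 fold change of 3.65 ± 0.37 (adjusted p = 5.3e-07) as counted and of 2.78 ± 0.30 (adjusted p = 4.7e-06) after correction, and 3.02 as counted without 24-month mouse 3. Txndc5, a disulfide isomerase of the same compartment, was at 182, 209 and 180.0 CPM at 6 months and 627, 709 and 893 CPM at 24 months. Txndc5 had a log2 fold change of 1.96 ± 0.20 (adjusted p = 5.0e-07) as counted and of 1.46 ± 0.15 (adjusted p = 3.2e-06) after correction. Igj, the joining chain of IgM and IgA polymers, has a low GC content of 39.3% and lay against the slope, at 58.7, 25.6 and 29.7 CPM at 6 months and 88.3, 92.1 and 160.0 CPM at 24 months. Igj had a log2 fold change of 1.58 ± 0.37 (adjusted p = 0.00094) as counted and of 3.51 ± 0.40 (adjusted p = 1.8e-05) after correction. Leaving out 24-month mouse 3 gave a corrected 2.91. Xbp1, a transcription factor of secretory cells, was called in neither fit, and Sdc1 and Fkbp11 were called higher as counted and not with the correction. Prdm1, a transcription factor of plasma cells and other lymphocytes, was named after its values were seen as the member that fell, at 11.4, 10.5 and 9.79 CPM at 6 months and 2.30, 1.67 and 1.52 CPM at 24 months. Prdm1 had a log2 fold change of -2.51 ± 0.25 (adjusted p = 4.0e-07) as counted and of -0.78 ± 0.22 (adjusted p = 0.0083) after correction, the corrected call being lost with GC content from the longest transcript (-0.32). Among variable segments, 56 of 65 tested heavy chain segments were called higher and 0 lower (45 and 0 of 63 with the correction), with medians of 2.74 and 2.11. Of 65 kappa segments 40 were called higher and 0 lower (22 and 0 of 64 with the correction), with medians of 1.84 and 1.19. Ighv1-72 was at 1.60, 0.655 and 0.449 CPM at 6 months and 21.2, 21.7 and 15.1 CPM at 24 months. Ighv1-72 had a log2 fold change of 4.45 ± 0.48 (adjusted p = 8.7e-07) as counted and of 3.89 ± 0.46 (adjusted p = 1.0e-05) after correction. Igkv12-46 was at 1.43, 1.11 and 1.03 CPM at 6 months and 5.60, 7.71 and 5.27 CPM at 24 months. Igkv12-46 had a log2 fold change of 2.38 ± 0.28 (adjusted p = 1.9e-06) as counted and of 1.69 ± 0.23 (adjusted p = 2.8e-05) after correction. V segments are close copies of one another, so the counting could have moved reads among them, and a single segment's value is less certain than the count over the list.

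Most T cell genes rose as well, 13 of 22 in both fits. Of the 22 T cell genes, 16 were called higher and 2 lower as counted, and 15 higher and 0 lower with the correction (28.2% of all genes were called higher with it), with medians of 1.22 and 0.89. Cd3e, a signalling chain of the T cell receptor, was at 6.82, 5.49 and 4.81 CPM at 6 months and 30.3, 40.1 and 72.4 CPM at 24 months, so the ages were far apart. Cd3e had a log2 fold change of 3.06 ± 0.31 (adjusted p = 5.0e-07) as counted and of 3.27 ± 0.34 (adjusted p = 4.1e-06) after correction, and the corrected value was 4.16 when GC content was taken over all transcripts. Cd6, a T cell surface receptor, was at 3.47, 2.57 and 2.11 CPM at 6 months and 20.2, 33.0 and 55.6 CPM at 24 months. Cd6 had a log2 fold change of 3.74 ± 0.37 (adjusted p = 3.7e-07) as counted and of 1.91 ± 0.27 (adjusted p = 4.8e-05) after correction, with 2.56 under the same change. Lck, the kinase that starts T cell receptor signalling, was at 14.1, 9.93 and 9.66 CPM at 6 months and 53.7, 92.0 and 128 CPM at 24 months. Lck had a log2 fold change of 3.02 ± 0.29 (adjusted p = 3.3e-07) as counted and of 1.77 ± 0.24 (adjusted p = 3.6e-05) after correction. Cd8b1, a chain of the CD8 co-receptor, was at 4.29, 2.52 and 3.55 CPM at 6 months and 11.5, 16.6 and 10.3 CPM at 24 months. Cd8b1 had a log2 fold change of 1.90 ± 0.30 (adjusted p = 2.5e-05) as counted and of 1.99 ± 0.27 (adjusted p = 2.9e-05) after correction. No tested T cell gene fell in both fits.

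The list of 16 genes of cytotoxic lymphocytes was split, with 6 higher and 6 lower as counted and 6 higher and 3 lower with the correction (medians -0.22 and 0.49). Ccl5, a chemokine stored by memory T cells and natural killer cells, was at 18.4, 19.1 and 18.3 CPM at 6 months and 163, 314 and 422 CPM at 24 months. Ccl5 had a log2 fold change of 4.01 ± 0.33 (adjusted p = 1.1e-07) as counted and of 3.44 ± 0.28 (adjusted p = 6.9e-07) after correction. Nkg7, a granule membrane protein, was at 6.33, 5.44 and 5.03 CPM at 6 months and 37.0, 55.5 and 42.0 CPM at 24 months. Nkg7 had a log2 fold change of 3.00 ± 0.23 (adjusted p = 7.9e-08) as counted and of 2.48 ± 0.19 (adjusted p = 3.2e-07) after correction. Cst7 and Ctsw, a protease inhibitor and a protease of the same cells, rose with log2 fold changes of 3.12 ± 0.34 as counted and 3.32 ± 0.32 after correction for the first and 2.91 ± 0.28 as counted and 1.96 ± 0.23 after correction for the second. In all, 5 genes rose and 2 fell in both fits. Gzma, a granzyme, and Ncr1, a receptor of natural killer cells, were named after their values were seen as the members that fell. Gzma was at 11.3, 12.8 and 10.1 CPM at 6 months and 2.80, 4.51 and 2.46 CPM at 24 months, with a log2 fold change of -1.79 ± 0.31 (adjusted p = 7.2e-05) as counted and of -0.66 ± 0.25 (adjusted p = 0.036) after correction. Its corrected call was lost without 6-month mouse 2, 24-month mouse 1 or 24-month mouse 3 (-0.57, -0.52 and -0.60). Ncr1 was at 1.98, 2.37 and 1.66 CPM at 6 months and 0.247, 0.436 and 0 CPM at 24 months, with a log2 fold change of -2.94 ± 0.56 (adjusted p = 0.00016) as counted and of -1.39 ± 0.52 (adjusted p = 0.035) after correction. Its corrected call was lost without the same mice (-1.25, -1.31 and -1.07), and it was at -3.75 and -2.17 without 24-month mouse 2. Klrb1c, Klrd1, Klre1 and Klrk1, receptors of natural killer cells, were called lower as counted and not with the correction, and Eomes, a transcription factor of these cells, was called lower with the correction only. In Cst7, Ctsw and Nkg7 no 24-month mouse overlapped a 6-month mouse, as in 85.2% of all genes in CPM.

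Genes of B cells were higher as counted more often than with the correction. Of 17, 11 were called higher and 4 lower without it (median 1.59), and 7 higher and 0 lower with it (median 0.56). Vpreb3, a B-lineage protein of the receptor assembly pathway, was at 18.2, 25.2 and 20.9 CPM at 6 months and 55.6, 61.2 and 93.1 CPM at 24 months. Vpreb3 had a log2 fold change of 1.71 ± 0.23 (adjusted p = 6.7e-06) as counted and of 1.32 ± 0.18 (adjusted p = 2.6e-05) after correction. Blk, a B cell kinase, and Spib, a transcription factor of B and plasmacytoid cells, rose by 2.65 ± 0.37 as counted and 1.59 ± 0.35 after correction and by 3.31 ± 0.46 as counted and 1.43 ± 0.30 after correction. Spib without 24-month mouse 3 was at 2.43 as counted. Faim3, the IgM receptor, rose by 3.28 ± 0.54 as counted and 2.49 ± 0.61 after correction, and by 2.21 and 1.5 without 24-month mouse 3, and by 2.69 as counted without 6-month mouse 3. Ms4a1, the gene of CD20, has a GC content of 40.6% and changed sign with the correction, at -1.11 ± 0.44 as counted and 1.45 ± 0.49 after correction. That corrected call was lost without 24-month mouse 3 (0.82) or 6-month mouse 3 (1.03). The uncorrected one was lost without 6-month mouse 1, 24-month mouse 1 or 24-month mouse 2 (-1.01, -1.03 and -0.93) and was at -1.70 without 6-month mouse 3.

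**Figure D2:**
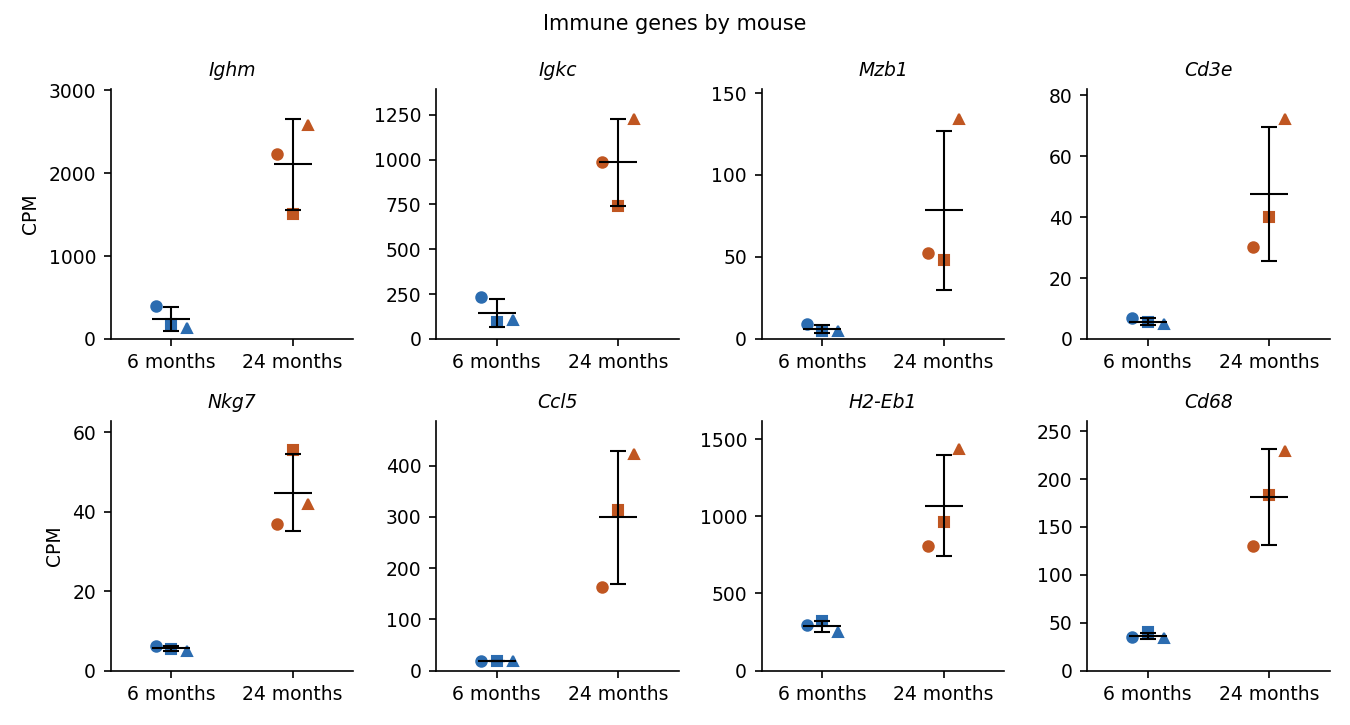
CPM of 8 immune genes in each mouse (points, 1 symbol per mouse number), with the mean and SD of 3 mice at 6 months (blue) and 24 months (orange). In all 8 genes the 24-month points lie above the 6-month points, and 24-month mouse 3 is highest in Ighm, Igkc, Mzb1, Cd3e, Ccl5, H2-Eb1 and Cd68. Of all genes tested, 85.2% had no overlap of the ages in CPM.

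Among signals that gather lymphocytes into follicles, 5 of 10 tested genes rose and 0 fell in both fits. Of these 10, 7 were called higher and 0 lower as counted, and 8 and 0 with the correction (medians 1.18 and 1.33). Over all genes 37.9% were called higher as counted and 28.2% with the correction. Cxcl13, Tnfsf13b and Ccl20 were called higher with the correction only, and Ccl21a and Ltbr as counted only. Ccl19, a chemokine that draws T cells and dendritic cells, was at 0.770, 0.756 and 0.539 CPM at 6 months and 7.33, 7.20 and 24.1 CPM at 24 months. Ccl19 had a log2 fold change of 4.2 ± 0.50 (adjusted p = 1.9e-06) as counted and of 2.88 ± 0.37 (adjusted p = 1.7e-05) after correction. Without 24-month mouse 3 its uncorrected value was 3.40. Ltb, a lymphotoxin chain, was at 20.7, 14.2 and 9.70 CPM at 6 months and 72.3, 91.2 and 272 CPM at 24 months. Ltb had a log2 fold change of 3.29 ± 0.44 (adjusted p = 5.8e-06) as counted and of 1.1 ± 0.23 (adjusted p = 0.0012) after correction, and 2.47 as counted without that mouse. Lta, the partner chain, was at 0.495, 0.655 and 0.225 CPM at 6 months and 1.81, 3.27 and 4.45 CPM at 24 months. Lta had a log2 fold change of 2.78 ± 0.48 (adjusted p = 7.0e-05) as counted and of 1.52 ± 0.44 (adjusted p = 0.0095) after correction. Its corrected call was lost without 6-month mouse 3 (1.18), when it was at 2.19 as counted. Cxcl12, a stromal chemokine that keeps plasma cells and other leukocytes in place, was at 156, 171 and 179 CPM at 6 months and 246, 331 and 234 CPM at 24 months. Cxcl12 had a log2 fold change of 0.68 ± 0.22 (adjusted p = 0.0099) as counted and of 1.86 ± 0.16 (adjusted p = 6.9e-07) after correction. The value as counted is smaller than the 0.74 by which scaling raised the 24-month libraries, so it is no rise as a plain share of reads. As counted, its call was lost on leaving out any 6-month mouse (0.40 to 0.49) or 24-month mouse 2 (0.51), and the corrected value was 1.25 with GC content from the longest transcript.

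Antigen presentation was higher at 24 months, most evenly in class II. All 12 tested class II genes were called higher with the correction and 0 lower, and 10 higher and 1 lower as counted, with medians of 1.02 and 2.13. Over all genes 28.2% were called higher with the correction and 37.9% as counted. H2-Eb1, a class II beta chain, was at 295, 319 and 248 CPM at 6 months and 805, 963 and 1435 CPM at 24 months. H2-Eb1 had a log2 fold change of 1.89 ± 0.25 (adjusted p = 5.1e-06) as counted and of 1.41 ± 0.18 (adjusted p = 1.5e-05) after correction. Cd74, the invariant chain that guides class II molecules, was at 1161, 1433 and 1059.9 CPM at 6 months and 3644, 4679.9 and 10592 CPM at 24 months. In all 3 old mice it was above all young ones, and highest in mouse 3. Cd74 had a log2 fold change of 2.37 ± 0.33 (adjusted p = 8.2e-06) as counted and of 0.86 ± 0.18 (adjusted p = 0.0013) after correction. The uncorrected value was 1.78 without that mouse. H2-DMa and H2-DMb1, which load peptides, rose by 2.89 ± 0.38 as counted and 1.45 ± 0.26 after correction and by 1.69 ± 0.22 as counted and 0.85 ± 0.14 after correction, and H2-DMa by 2.14 as counted without 24-month mouse 3. Ifi30, a lysosomal thiol reductase, rose by 1.57 ± 0.21 as counted and 0.98 ± 0.13 after correction. Ctss, the protease that trims the invariant chain, was the member called lower as counted, at 147, 143 and 137 CPM at 6 months and 73.3, 90.3 and 78.5 CPM at 24 months. It was called higher with the correction, at -0.82 ± 0.21 as counted and 0.50 ± 0.14 after correction, and that call was lost without 6-month mouse 3 (0.42).

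Of 22 class I genes, 16 were called higher and 2 lower as counted (median 1.60), and 15 and 3 with the correction (median 0.54). Over all genes 37.9% were called higher as counted and 28.2% with the correction. H2-K1, a classical class I heavy chain, was at 1058, 1163 and 1028 CPM at 6 months and 3611, 4976 and 4645 CPM at 24 months. H2-K1 had a log2 fold change of 2.03 ± 0.21 (adjusted p = 5.8e-07) as counted and of 0.48 ± 0.15 (adjusted p = 0.015) after correction. The corrected call was lost without 6-month mouse 1, 6-month mouse 3 or 24-month mouse 2 (0.46, 0.47 and 0.29). H2-T22, a nonclassical heavy chain, was at 77.8, 92.3 and 72.7 CPM at 6 months and 219, 313 and 184 CPM at 24 months. H2-T22 had a log2 fold change of 1.56 ± 0.23 (adjusted p = 1.3e-05) as counted and of 1.1 ± 0.15 (adjusted p = 2.9e-05) after correction. Psmb10, an immunoproteasome subunit, was at 52.7, 52.4 and 49.2 CPM at 6 months and 179, 225 and 321 CPM at 24 months. Psmb10 had a log2 fold change of 2.23 ± 0.24 (adjusted p = 7.5e-07) as counted and of 0.84 ± 0.11 (adjusted p = 2.1e-05) after correction. Calr and Pdia3, which fold class I chains in the endoplasmic reticulum, went opposite ways. Calr rose by 1.31 ± 0.18 as counted and 1.70 ± 0.14 after correction, and Pdia3 fell, at 388, 329.9 and 436 CPM at 6 months and 72.3, 63.8 and 34.4 CPM at 24 months. Pdia3 had a log2 fold change of -2.76 ± 0.27 (adjusted p = 3.3e-07) as counted and of -1.15 ± 0.14 (adjusted p = 1.1e-05) after correction. H2 genes are close copies of one another, so the share of reads given to each depends on the counting.

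Interferon-stimulated genes did not move as one group. As counted 6 of 24 were called higher and 10 lower (median -0.13), and with the correction 11 higher and 3 lower (median 0.46). Oas1a, a sensor enzyme for double-stranded RNA, was at 7.10, 5.90 and 4.31 CPM at 6 months and 27.7, 65.8 and 29.2 CPM at 24 months. Oas1a had a log2 fold change of 2.83 ± 0.32 (adjusted p = 1.2e-06) as counted and of 2.45 ± 0.30 (adjusted p = 1.4e-05) after correction. Irf7, a regulator of interferon transcription, was at 20.1, 15.9 and 12.3 CPM at 6 months and 89.9, 250.2 and 138 CPM at 24 months. Irf7 had a log2 fold change of 3.31 ± 0.32 (adjusted p = 3.1e-07) as counted and of 1.78 ± 0.31 (adjusted p = 0.0003) after correction. Mouse 2 was the highest of the 3 old mice for both, and for Oas2, which was at 8.42, 7.26 and 5.62 CPM at 6 months and 27.2, 53.6 and 12.8 CPM at 24 months. Oas2 had a log2 fold change of 2.15 ± 0.38 (adjusted p = 9.1e-05) as counted and of 2.55 ± 0.33 (adjusted p = 2.0e-05) after correction. Without 24-month mouse 2 the corrected value of Irf7 was 1.16 and that of Oas2 1.96, with 1.5 as counted. Gbp3, a guanylate-binding protein, fell, at 30.0, 27.2 and 23.9 CPM at 6 months and 4.61, 3.20 and 0.586 CPM at 24 months. Gbp3 had a log2 fold change of -3.21 ± 0.41 (adjusted p = 3.4e-06) as counted and of -1.71 ± 0.30 (adjusted p = 0.00027) after correction. Ddx58 and Ifit1, a sensor of viral RNA and an effector that binds it, changed sign with the correction, at -1.57 ± 0.24 as counted and 0.52 ± 0.15 after correction and at -0.96 ± 0.43 as counted and 1.23 ± 0.32 after correction. The corrected calls were lost without 24-month mouse 1 or with GC content from the longest transcript for Ddx58 (0.37 and 0.34) and without 24-month mouse 2 for Ifit1 (0.49). As counted, the Ifit1 call was lost without 6-month mouse 1, 24-month mouse 1 or 24-month mouse 3 (-1.11, -0.84 and -0.53), and it was at -1.78 without 24-month mouse 2.

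Promoters were matched for 17 of the 24 genes of this group, and most of those 17 genes hold the same short sequence there. A pair of GAAA half-sites with any 2 bases between them, the core of the site bound by interferon-activated factors, was searched on both strands of RefSeq promoter windows (GRCm38.p6, 250 bases before to 50 after the start of each gene). It occurred in 12 of 17 matched interferon-stimulated genes (70.6%), in 5 of 19 class I genes (26.3%), in 1 of 9 class II genes (11.1%) and in 3.44% of all 32851 windows. A listed gene was counted if any of its windows held the motif, while 3.44% is a share of single windows, so the units differ. In all, 4 windows of 50 bases before the start are shown for genes described above, in the direction of transcription. Only the first match in each promoter is in capitals. The windows of Oas1a, Gbp3 and Ifit1 hold a further match, left wholly or partly in lower case, which overlaps the first in Oas1a and Gbp3. Gbp3, Ifit1 and H2-T22 carry it as the complement.
Oas1a, chr5:120907526-120907575, minus strand: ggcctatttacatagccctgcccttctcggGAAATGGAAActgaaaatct
Gbp3, chr3:142559979-142560028, plus strand: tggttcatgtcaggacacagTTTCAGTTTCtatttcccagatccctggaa
Ifit1, chr19:34640765-34640814, plus strand: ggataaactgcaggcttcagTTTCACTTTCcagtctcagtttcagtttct
H2-T22, chr17:36042904-36042953, minus strand: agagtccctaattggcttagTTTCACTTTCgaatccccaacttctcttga
Oas1a and H2-T22 rose, Gbp3 fell, and Ifit1 differed between the fits. Of the 12 interferon-stimulated genes with the motif, 3 were called higher and 7 lower as counted, and 5 higher and 3 lower with the correction. A match is a description of the letters and not evidence of binding.

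Macrophage genes changed unevenly. Of 17 genes of monocytes and interstitial macrophages, 7 were called higher and 6 lower as counted, and 9 and 3 with the correction (medians 0.24 and 0.61). Cd68, a lysosomal protein of macrophages, was at 34.9, 39.9 and 34.1 CPM at 6 months and 129.8, 184 and 229.5 CPM at 24 months. Cd68 had a log2 fold change of 2.32 ± 0.22 (adjusted p = 2.5e-07) as counted and of 1.64 ± 0.15 (adjusted p = 1.0e-06) after correction. Csf1r, the receptor for the macrophage growth factor, was at 144, 154 and 143 CPM at 6 months and 545, 751 and 766 CPM at 24 months. Csf1r had a log2 fold change of 2.22 ± 0.24 (adjusted p = 8.9e-07) as counted and of 1.15 ± 0.11 (adjusted p = 2.2e-06) after correction. Ly6c2, a surface protein of inflammatory monocytes, rose by 1.94 ± 0.28 as counted and 2.20 ± 0.26 after correction, and Lyz1, one of a pair of lysozyme copies, fell by the log2 values -2.47 ± 0.25 as counted and -1.56 ± 0.19 after correction. Ccr2, the receptor that brings monocytes out of marrow, and Emr1, the F4/80 antigen, were called lower as counted and higher with the correction, at -1.20 ± 0.50 as counted and 1.45 ± 0.32 after correction and at -0.93 ± 0.19 as counted and 0.61 ± 0.18 after correction. Ccr2 as counted was not called without 6-month mouse 1, 24-month mouse 1 or 24-month mouse 3 (-1.24, -1.07 and -0.75), and its values were -2.11 as counted and 0.75 with the correction without 24-month mouse 2. The corrected call of Emr1 was lost without 6-month mouse 3 (0.47).

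Most markers of alveolar macrophages were lower as counted and fewer with the correction. As counted 3 of 17 were called higher and 12 lower (median -1.60), and with the correction 3 and 7 (median -0.41), beside 44% and 24.9% of all genes lower. Siglec5, a sialic acid receptor gene, was at 11.1, 9.73 and 11.9 CPM at 6 months and 3.54, 3.05 and 2.22 CPM at 24 months. Siglec5 had a log2 fold change of -1.87 ± 0.28 (adjusted p = 1.4e-05) as counted and of -1.89 ± 0.19 (adjusted p = 2.5e-06) after correction. Ear1 and Ear2, ribonucleases that are near-identical copies, fell by the log2 values -1.83 ± 0.25 as counted and -0.93 ± 0.19 after correction and -1.53 ± 0.23 as counted and -0.53 ± 0.11 after correction, but were at 0.43 and 0.80 with a correction for GC content alone. Itgax, the integrin CD11c that dendritic cells also carry, rose, at 60.4, 73.1 and 65.5 CPM at 6 months and 128, 152 and 189 CPM at 24 months. Itgax had a log2 fold change of 1.23 ± 0.21 (adjusted p = 5.8e-05) as counted and of 1.63 ± 0.19 (adjusted p = 9.6e-06) after correction. Plet1 changed sign with the correction, at -0.53 ± 0.19 as counted and 0.54 ± 0.13 after correction.

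Complement genes changed in both directions. Of 16 tested complement genes, 8 were called higher and 5 lower as counted, and 8 and 3 with the correction (medians 0.76 and 0.42). Over all genes 37.9% were called higher and 44% lower as counted, and 28.2% and 24.9% with the correction. C1qa, a chain of the first component, was at 39.2, 44.0 and 34.2 CPM at 6 months and 197, 268 and 330.0 CPM at 24 months. C1qa had a log2 fold change of 2.76 ± 0.23 (adjusted p = 1.2e-07) as counted and of 1.06 ± 0.15 (adjusted p = 3.5e-05) after correction. C1qb, its partner chain, rose by 2.35 ± 0.21 as counted and 0.95 ± 0.18 after correction, and C5ar1, the receptor for the fragment C5a, by 1.17 ± 0.23 as counted and 1.68 ± 0.18 after correction. Cd59a, a membrane inhibitor of the final pore, fell by the log2 values -2.52 ± 0.27 as counted and -0.79 ± 0.15 after correction, and C3ar1 changed sign, at -1.0 ± 0.35 as counted and 1.66 ± 0.28 after correction. Among 15 neutrophil genes, 6 were called higher and 1 lower as counted, and 4 and 1 with the correction (medians 0.26 and 0.45). Mmp9, a granule protease, was at 21, 31.0 and 11 CPM at 6 months and 116, 152 and 233 CPM at 24 months. Mmp9 had a log2 fold change of 2.99 ± 0.39 (adjusted p = 4.6e-06) as counted and of 1.48 ± 0.38 (adjusted p = 0.0062) after correction. Csf3r, the receptor for the neutrophil growth factor, rose by 2.01 ± 0.25 as counted and 0.96 ± 0.23 after correction. Ltf, lactoferrin, which airway glands also make, rose by 1.51 ± 0.38 as counted and 1.47 ± 0.42 after correction, and by 0.90 as counted without 6-month mouse 3. The neutrophil genes S100a8, S100a9, Ly6g, Camp, Ngp and Retnlg were called in neither fit. Mpo, Elane and Prtn3 were called higher as counted only, and Cxcr2 higher with the correction only. Mmp8 was called lower as counted only, and Lcn2 lower with the correction only.

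Genes of type 2 cells did not move in one direction, and those of surfactant depended on the correction. Of 17, 8 were called higher and 6 lower as counted (median 0.44), and 6 and 9 with the correction (median -0.31). Sftpc, a surfactant protein that marks type 2 cells, was at 15833, 17779 and 18046 CPM at 6 months and 23563, 22068 and 26460.0 CPM at 24 months. Sftpc had a log2 fold change of 0.48 ± 0.18 (adjusted p = 0.02) as counted and of -0.31 ± 0.12 (adjusted p = 0.034) after correction. As a plain share of gene reads it was 1.88%, 2.02% and 2.05% at 6 months and 1.94%, 1.69% and 1.38% at 24 months, with overlap. The call was lost on leaving out any 6-month mouse as counted (0.18 to 0.28), and with the correction on leaving out 4 of the 6 mice (-0.29 to -0.25) or taking GC content from the longest transcript (-0.27). Sftpa1, a surfactant collectin, was at 3742, 3946 and 4114 CPM at 6 months and 2043, 1688 and 1529.6 CPM at 24 months. Sftpa1 had a log2 fold change of -1.17 ± 0.18 (adjusted p = 2.6e-05) as counted and of 0.76 ± 0.13 (adjusted p = 0.00029) after correction. Etv5, a transcription factor that maintains type 2 cells, rose in both fits, at 176, 212 and 182 CPM at 6 months and 382, 496 and 627 CPM at 24 months. Etv5 had a log2 fold change of 1.40 ± 0.24 (adjusted p = 5.5e-05) as counted and of 1.61 ± 0.21 (adjusted p = 1.8e-05) after correction. Lpcat1, which makes surfactant phospholipid, rose by 1.07 ± 0.20 as counted and 0.59 ± 0.10 after correction. Ctsh, a protease that processes surfactant protein, and Il33, an alarm cytokine of these cells, fell by the log2 values -0.87 ± 0.21 as counted and -0.98 ± 0.20 after correction and -3.09 ± 0.34 as counted and -0.91 ± 0.19 after correction.

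Type 1 cell genes went both ways. As counted 5 of 14 were called higher and 8 lower (median -1.11), and with the correction 4 higher and 5 lower (median -0.19), beside 44% and 24.9% of all genes lower. Their summed level in TMM-scaled CPM, without the correction, was higher in every old mouse. It was at 10380, 11140 and 11280 CPM at 6 months and 17430, 16860 and 19740 CPM at 24 months. Scaling moved the 6-month libraries by -0.24 to -0.19 and the 24-month libraries by 0.28 to 0.94 on the log2 scale. As a plain share of reads the sums of the ages overlapped. Ager, given below, made up a large part of the sum and was not called with the correction. Vegfa, the growth factor that type 1 cells supply to capillaries, has a GC content of 54.8%, where genes were mostly higher, and yet was at 911, 799 and 1001 CPM at 6 months and 355, 348 and 237 CPM at 24 months. Vegfa fell, with a log2 fold change of -1.53 ± 0.25 (adjusted p = 4.3e-05) as counted and of -2.78 ± 0.23 (adjusted p = 5.5e-07) after correction, and -1.48 with GC content from the longest transcript. Akap5, an anchor protein for kinases, was at 303, 230.1 and 281 CPM at 6 months and 25.0, 16.0 and 6.79 CPM at 24 months. Akap5 had a log2 fold change of -4.08 ± 0.37 (adjusted p = 1.9e-07) as counted and of -1.50 ± 0.18 (adjusted p = 1.2e-05) after correction. Cav1, the coat protein of caveolae that endothelium shares, and Clic5, a chloride channel family member, fell by the log2 values -2.85 ± 0.31 as counted and -0.87 ± 0.15 after correction and -3.21 ± 0.36 as counted and -0.74 ± 0.18 after correction. Ager, the receptor that marks type 1 cells, was at 2366, 2784 and 2545 CPM at 6 months and 7284, 7173 and 9680.3 CPM at 24 months, called as counted and not with the correction. Ager had a log2 fold change of 1.65 ± 0.20 (adjusted p = 2.3e-06) as counted and of -0.15 ± 0.15 (adjusted p = 0.41) after correction. Its corrected value was 0.02 without 24-month mouse 3. Rtkn2 changed sign, at -1.29 ± 0.21 as counted and 0.77 ± 0.12 after correction.

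In the airways, Scgb1a1, the secretory protein of club cells, was at 29201, 25240.0 and 33724 CPM at 6 months and 39485, 29983 and 11211 CPM at 24 months, with the ages overlapping and 24-month mouse 3 lowest. It was not called. Scgb1a1 had a log2 fold change of -0.13 ± 0.32 (adjusted p = 0.72) as counted and of -0.53 ± 0.34 (adjusted p = 0.2) after correction, and without 24-month mouse 3 the uncorrected value was 0.24. Without 24-month mouse 1 the corrected value was -0.93 and was called. Of 14 airway secretory genes, 7 were called higher and 4 lower as counted, and 3 and 3 with the correction (medians 0.36 and 0.09). Muc5b, the gel-forming mucin of small airways, was at 145, 223 and 165 CPM at 6 months and 342, 428 and 927 CPM at 24 months. Muc5b had a log2 fold change of 1.67 ± 0.37 (adjusted p = 0.00067) as counted and of 1.51 ± 0.31 (adjusted p = 0.0013) after correction. Lypd2 rose by 1.82 ± 0.29 as counted and 0.90 ± 0.19 after correction. Aldh1a1, which makes retinoic acid, fell, at 1424, 1524 and 1599.5 CPM at 6 months and 382, 349 and 149.8 CPM at 24 months. Aldh1a1 had a log2 fold change of -2.37 ± 0.30 (adjusted p = 3.2e-06) as counted and of -0.95 ± 0.18 (adjusted p = 0.00045) after correction. Gabrp fell by the log2 values -2.54 ± 0.26 as counted and -0.35 ± 0.13 after correction, the corrected call being lost on leaving out 4 of the 6 mice (-0.29 to -0.38).

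More genes of ciliated cells were called lower than higher, with 5 higher and 12 lower of 18 as counted and 3 higher and 9 lower with the correction (medians -0.91 and -0.32), beside 44% and 24.9% of all genes lower. Their summed level in TMM-scaled CPM, without the correction, went the other way. It was at 1129, 1134 and 1149 CPM at 6 months and 2028, 2138 and 3169 CPM at 24 months. Dnaic1, an arm of the motor that beats cilia, was at 18, 16.7 and 18 CPM at 6 months and 12.3, 10.9 and 4.10 CPM at 24 months. Dnaic1 had a log2 fold change of -0.93 ± 0.28 (adjusted p = 0.0067) as counted and of -1.13 ± 0.23 (adjusted p = 0.00081) after correction. Tekt1 and Ccdc113, proteins of the ciliary shaft, fell by the log2 values -0.89 ± 0.23 as counted and -1.04 ± 0.18 after correction and -1.83 ± 0.26 as counted and -1.22 ± 0.22 after correction. Wdr96 rose by 1.72 ± 0.31 as counted and 4.67 ± 0.56 after correction, and without 24-month mouse 3 by 1.1 and 3.54. Foxj1, the master regulator of motile cilia, has a GC content of 61.4% and was at 145, 166 and 162 CPM at 6 months and 447, 461 and 769 CPM at 24 months. It was called as counted and not with the correction. Foxj1 had a log2 fold change of 1.83 ± 0.24 (adjusted p = 4.2e-06) as counted and of -0.21 ± 0.17 (adjusted p = 0.32) after correction. Dnah11, a motor heavy chain, changed sign, at -1.53 ± 0.33 as counted and 0.77 ± 0.22 after correction.

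Endothelial genes split evenly, 10 higher and 10 lower of 21 as counted and 6 and 6 with the correction (medians 0.26 and 0.03). The corrected counts were near the shares of all genes, 28.2% higher and 24.9% lower. As counted, 37.9% of all genes were called higher and 44% lower. Vwf, the clotting factor carrier stored by larger vessels, was at 668, 971 and 654 CPM at 6 months and 2988, 5749 and 8785 CPM at 24 months. Every old mouse was above every young one, where 85.2% of all genes had no overlap of the ages in CPM. Vwf had a log2 fold change of 2.93 ± 0.33 (adjusted p = 1.2e-06) as counted and of 1.86 ± 0.22 (adjusted p = 1.1e-05) after correction. Eng, a co-receptor for growth factors of the TGF-beta family, was at 376, 503 and 387 CPM at 6 months and 1626, 2164 and 3836 CPM at 24 months. Eng had a log2 fold change of 2.59 ± 0.28 (adjusted p = 8.4e-07) as counted and of 0.73 ± 0.12 (adjusted p = 0.00021) after correction. Car4, the carbonic anhydrase of lung capillaries, was at 135, 152 and 151 CPM at 6 months and 330.0, 302 and 499.7 CPM at 24 months. Car4 had a log2 fold change of 1.37 ± 0.23 (adjusted p = 4.7e-05) as counted and of 1.58 ± 0.21 (adjusted p = 2.2e-05) after correction, and 0.68 with GC content over all transcripts. Erg, the transcription factor that keeps endothelial identity, fell, at 94.6, 87.9 and 92.8 CPM at 6 months and 14.1, 12.0 and 6.91 CPM at 24 months. Erg had a log2 fold change of -3.05 ± 0.27 (adjusted p = 1.7e-07) as counted and of -3.45 ± 0.30 (adjusted p = 1.1e-06) after correction. Ednrb, an endothelin receptor of capillaries, was at 86.0, 88.4 and 89.4 CPM at 6 months and 10.04, 8.22 and 3.16 CPM at 24 months. Ednrb had a log2 fold change of -3.60 ± 0.35 (adjusted p = 3.4e-07) as counted and of -1.07 ± 0.18 (adjusted p = 0.00018) after correction. Pecam1, a junction protein of all endothelium, was at 721, 789.9 and 758 CPM at 6 months and 589, 458 and 239 CPM at 24 months, called as counted and not with the correction. Pecam1 had a log2 fold change of -0.82 ± 0.26 (adjusted p = 0.0083) as counted and of -0.39 ± 0.18 (adjusted p = 0.073) after correction. Its corrected value without 24-month mouse 1 (-0.60) and with GC content from the longest transcript (-0.54) was called.

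Smooth muscle genes also divided. Of 16, 10 were called higher and 4 lower as counted, and 7 and 2 with the correction (medians 1.21 and 0.37). Acta2, smooth muscle actin, was at 160.1, 148 and 125 CPM at 6 months and 427, 372 and 445 CPM at 24 months. Acta2 had a log2 fold change of 1.52 ± 0.24 (adjusted p = 3.1e-05) as counted and of 1.93 ± 0.21 (adjusted p = 5.3e-06) after correction. Actg2, the other smooth muscle actin, rose by 2.10 ± 0.33 as counted and 1.48 ± 0.31 after correction. Myh11, the smooth muscle myosin heavy chain, moved the other way, at 168, 136 and 127 CPM at 6 months and 37.9, 33.7 and 19.3 CPM at 24 months. Myh11 had a log2 fold change of -2.24 ± 0.24 (adjusted p = 9.5e-07) as counted and of -2.58 ± 0.26 (adjusted p = 2.8e-06) after correction. Mylk, the kinase that starts contraction, was at 288, 288 and 308 CPM at 6 months and 100.2, 103 and 66.3 CPM at 24 months. Mylk had a log2 fold change of -1.71 ± 0.22 (adjusted p = 4.4e-06) as counted and of -1.80 ± 0.15 (adjusted p = 7.0e-07) after correction. Their GC contents are 53.4% and 53.1%, in a decile of genes with 918 called higher and 177 lower as counted. Synpo2 and Rgs5 changed sign, at -1.35 ± 0.24 as counted and 1.08 ± 0.17 after correction and at -1.36 ± 0.39 as counted and 1.29 ± 0.26 after correction.

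**Figure D3:**
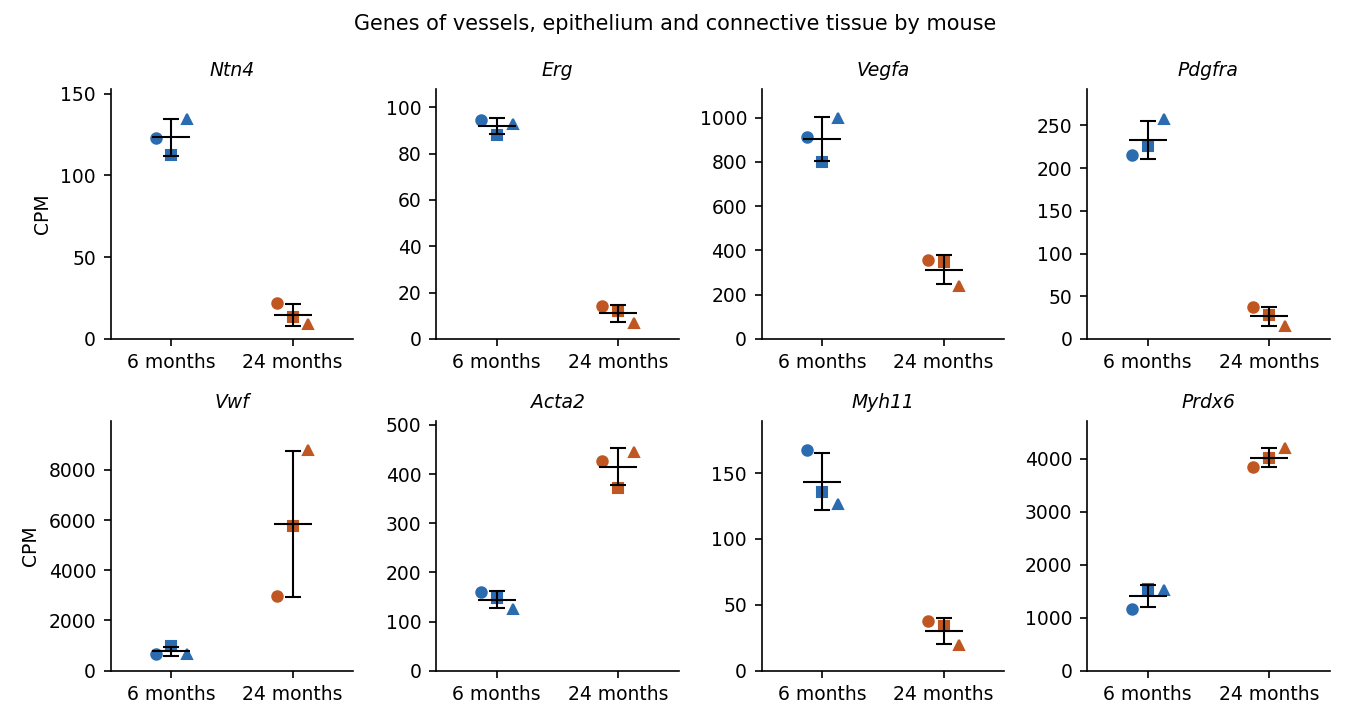
CPM of 7 genes of vessels, epithelium, smooth muscle and fibroblasts and of the antioxidant enzyme gene Prdx6 in each mouse, with the mean and SD of 3 mice at 6 months (blue) and 24 months (orange). Ntn4, Erg, Vegfa, Pdgfra and Myh11 are lower and Vwf, Acta2 and Prdx6 higher at 24 months, with no overlap of mice in any panel. Of all genes tested, 85.2% had no overlap in CPM.

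More fibroblast genes were called lower than higher. Of 16, 5 were called higher and 11 lower as counted (median -1.37), and 1 higher and 7 lower with the correction (median -0.29), beside 44% and 24.9% of all genes lower. Their summed level in TMM-scaled CPM overlapped between the ages, at 2983, 3126 and 3146 CPM at 6 months and 3491, 3289 and 3000 CPM at 24 months. Scaling moved the 6-month libraries by -0.24 to -0.19 and the 24-month libraries by 0.28 to 0.94 on the log2 scale. As a plain share of reads the sum was lower in every old mouse than in every young one. Pdgfra, the growth factor receptor of lipofibroblasts, was at 215, 226 and 258 CPM at 6 months and 37.2, 27.7 and 15.2 CPM at 24 months. Pdgfra had a log2 fold change of -3.12 ± 0.28 (adjusted p = 1.8e-07) as counted and of -1.53 ± 0.16 (adjusted p = 3.7e-06) after correction. Npnt, a matrix ligand that fibroblasts and type 1 cells make, was at 534, 609 and 602 CPM at 6 months and 182, 158 and 108 CPM at 24 months. Npnt had a log2 fold change of -1.96 ± 0.24 (adjusted p = 2.6e-06) as counted and of -1.52 ± 0.13 (adjusted p = 6.1e-07) after correction. Dpt, dermatopontin, fell by the log2 values -1.58 ± 0.18 as counted and -0.82 ± 0.11 after correction. Thy1, which T cells share, was the member that rose, at 23.4, 21.8 and 19.2 CPM at 6 months and 98.3, 126 and 125 CPM at 24 months. Thy1 had a log2 fold change of 2.44 ± 0.20 (adjusted p = 1.0e-07) as counted and of 1.01 ± 0.14 (adjusted p = 3.4e-05) after correction. Col13a1 changed sign, at 1.11 ± 0.22 as counted and -0.69 ± 0.21 after correction.

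Matrix genes were called higher more often as counted than with the correction, and 2 fibrillar collagens depended on how GC content was taken. Of 24 genes of collagens and elastic fibres, 14 were called higher and 7 lower as counted (median 0.92), and 4 and 7 with the correction (median -0.07). Col1a1, the main chain of type I collagen, was at 214, 300.1 and 152 CPM at 6 months and 516, 560.3 and 1120.3 CPM at 24 months. Col1a1 had a log2 fold change of 1.72 ± 0.31 (adjusted p = 9.7e-05) as counted and of -0.12 ± 0.16 (adjusted p = 0.56) after correction, so it was not called with the correction, and was at 0.05 without 6-month mouse 2. Col1a2, the second chain, was at 360.1, 444 and 314 CPM at 6 months and 563, 639.7 and 705 CPM at 24 months. Col1a2 had a log2 fold change of 0.77 ± 0.22 (adjusted p = 0.0047) as counted and of -0.68 ± 0.15 (adjusted p = 0.002) after correction, but 2.97 with GC content over all transcripts. As counted its call was lost without 6-month mouse 1 or 3 (0.50 and 0.42). Col3a1, of type III collagen, was at 319.6, 279.9 and 246 CPM at 6 months and 195, 173 and 146 CPM at 24 months. Col3a1 had a log2 fold change of -0.72 ± 0.23 (adjusted p = 0.0095) as counted and of -1.06 ± 0.16 (adjusted p = 6.5e-05) after correction, and again 1.46 with GC content over all transcripts. No direction is therefore given for the fibrillar collagens. Eln, elastin, was at 86.0, 83.7 and 101 CPM at 6 months and 259, 264 and 645 CPM at 24 months, called as counted and not with the correction. Eln had a log2 fold change of 2.10 ± 0.30 (adjusted p = 9.7e-06) as counted and of 0.12 ± 0.14 (adjusted p = 0.46) after correction. Fbn1, the main fibrillin of elastic fibres, fell, at 83.4, 76.1 and 67.9 CPM at 6 months and 27.4, 23.3 and 11.5 CPM at 24 months. Fbn1 had a log2 fold change of -1.86 ± 0.26 (adjusted p = 9.1e-06) as counted and of -1.07 ± 0.21 (adjusted p = 0.00071) after correction. Plod2 and Lox, enzymes that cross-link collagen, fell by the log2 values -3.35 ± 0.32 as counted and -0.83 ± 0.18 after correction and -3.25 ± 0.31 as counted and -0.56 ± 0.15 after correction, while Plod1, a related hydroxylase, rose by 2.36 ± 0.28 as counted and 0.80 ± 0.18 after correction. P4ha1, a proline hydroxylase, changed sign, at -1.64 ± 0.28 as counted and 0.48 ± 0.17 after correction, and its corrected call was lost without 24-month mouse 1 (0.16) or any of the 6-month mice (0.38 to 0.51) and with GC content over all transcripts (0.38).

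Genes of the cell cycle were higher with the correction, 15 of 24 and 0 lower (median 0.88), and divided as counted, 12 higher and 10 lower (median 0.50). Mcm2, Mcm3 and Mcm7, subunits of the helicase that opens DNA for replication, rose by 2.25 ± 0.25 as counted and 0.76 ± 0.12 after correction, by 1.41 ± 0.19 as counted and 0.94 ± 0.13 after correction and by 1.32 ± 0.19 as counted and 1.25 ± 0.15 after correction. The corrected value of Mcm7 was 0.39 with GC content from the longest transcript. Ccne1, the cyclin that starts S phase, was at 1.21, 1.46 and 0.854 CPM at 6 months and 4.28, 5.45 and 9.60 CPM at 24 months. Ccne1 had a log2 fold change of 2.44 ± 0.36 (adjusted p = 1.4e-05) as counted and of 1.87 ± 0.33 (adjusted p = 0.0003) after correction. Mcm6 and Top2a changed sign, at -0.71 ± 0.18 as counted and 0.93 ± 0.12 after correction and at -1.73 ± 0.38 as counted and 1.01 ± 0.24 after correction, the corrected call of Top2a being lost without 24-month mouse 2 (0.59). Mki67, the usual marker of dividing cells, was at 12.4, 11.3 and 13.7 CPM at 6 months and 2.72, 5.60 and 1.87 CPM at 24 months, called lower as counted. Mki67 had a log2 fold change of -1.84 ± 0.40 (adjusted p = 0.00059) as counted and of 0.61 ± 0.31 (adjusted p = 0.11) after correction. Without 24-month mouse 1 its corrected value was 0.88 and was called.

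Senescence markers and p53 targets were mixed, 10 higher and 7 lower of 22 tested as counted, and 7 and 5 with the correction (medians 0.25 and 0.14). The corrected counts were near the shares of all genes, 28.2% higher and 24.9% lower. Cdkn1a, the p21 inhibitor of the cell cycle, was at 62.9, 84.1 and 105 CPM at 6 months and 246, 252 and 381 CPM at 24 months. Cdkn1a had a log2 fold change of 1.80 ± 0.24 (adjusted p = 4.8e-06) as counted and of 0.63 ± 0.18 (adjusted p = 0.0093) after correction, and the corrected call was lost without 6-month mouse 1 (0.44). Cdkn2a, which encodes p16, was near the detection limit, at 0.660, 1.26 and 0.809 CPM at 6 months and 2.14, 1.74 and 3.98 CPM at 24 months. It was called as counted and not with the correction. Cdkn2a had a log2 fold change of 1.49 ± 0.41 (adjusted p = 0.0035) as counted and of -0.11 ± 0.36 (adjusted p = 0.81) after correction. The corrected value was 0.21 without 6-month mouse 2 and 0.07 without 24-month mouse 2. Gdf15, a stress-induced cytokine, was at 2.20, 1.51 and 1.26 CPM at 6 months and 9.38, 17.6 and 31.2 CPM at 24 months. Gdf15 had a log2 fold change of 3.54 ± 0.41 (adjusted p = 1.5e-06) as counted and of 1.48 ± 0.28 (adjusted p = 0.0005) after correction. Trp53, which encodes p53, rose by 1.49 ± 0.21 as counted and 0.41 ± 0.11 after correction, and Mdm2, which degrades p53 and is one of its targets, fell by the log2 values -3.39 ± 0.22 as counted and -1.45 ± 0.12 after correction. Lmnb1, a lamin lost from senescent nuclei, was at 16.8, 19.7 and 19.7 CPM at 6 months and 19.5, 28.5 and 24.9 CPM at 24 months, with overlapping ages. Lmnb1 had a log2 fold change of 0.38 ± 0.21 (adjusted p = 0.1) as counted and of -0.46 ± 0.14 (adjusted p = 0.012) after correction, the corrected call being lost and the uncorrected one gained without 24-month mouse 1 (-0.34 and 0.51).

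Of 24 DNA repair genes, 5 were called higher and 17 lower as counted (median -2.14, beside 44% of all genes lower), and 3 higher and 6 lower with the correction (median -0.28), a share near the 24.9% of all genes called lower with it. Msh6, a mismatch repair protein, fell by the log2 values -2.35 ± 0.19 as counted and -1.14 ± 0.15 after correction. Xrcc6, the Ku protein that holds broken ends, was at 14.3, 14.5 and 17.6 CPM at 6 months and 6.09, 5.89 and 5.39 CPM at 24 months. Xrcc6 had a log2 fold change of -1.41 ± 0.19 (adjusted p = 7.0e-06) as counted and of -1.54 ± 0.20 (adjusted p = 2.2e-05) after correction, and -2.27 with GC content from the longest transcript. Xpa, of nucleotide excision repair, was at 10.5, 9.63 and 10.9 CPM at 6 months and 4.12, 5.02 and 3.75 CPM at 24 months. Xpa had a log2 fold change of -1.26 ± 0.22 (adjusted p = 6.8e-05) as counted and of -1.37 ± 0.16 (adjusted p = 8.8e-06) after correction, and -0.74 with GC content over all transcripts. Ogg1, which removes oxidised guanine, was named after its values were seen as the member that rose in both fits, at 10.5, 9.22 and 10.9 CPM at 6 months and 25.1, 33.4 and 27.4 CPM at 24 months. Ogg1 had a log2 fold change of 1.49 ± 0.21 (adjusted p = 8.3e-06) as counted and of 0.42 ± 0.15 (adjusted p = 0.03) after correction. Its corrected call was lost without 6-month mouse 1, 6-month mouse 2 or 24-month mouse 2 (0.42, 0.34 and 0.25).

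More antioxidant enzymes were called higher than lower, and 10 rose and 4 fell in both fits. Of 25 genes of glutathione use and peroxide removal, 15 were called higher and 8 lower as counted, and 16 and 4 with the correction (medians 0.82 and 0.53). Over all genes 37.9% were called higher and 44% lower as counted, and 28.2% and 24.9% with the correction. Prdx6, a peroxidase that also turns over surfactant lipid, was at 1168, 1545 and 1514 CPM at 6 months and 3838, 4018 and 4200.5 CPM at 24 months. Prdx6 had a log2 fold change of 1.51 ± 0.20 (adjusted p = 6.0e-06) as counted and of 2.24 ± 0.18 (adjusted p = 4.3e-07) after correction, and 1.33 with GC content over all transcripts. Gstm1, a glutathione transferase, was at 516, 589 and 495 CPM at 6 months and 1863, 1881 and 3466 CPM at 24 months. Gstm1 had a log2 fold change of 2.17 ± 0.24 (adjusted p = 1.2e-06) as counted and of 1.37 ± 0.17 (adjusted p = 1.3e-05) after correction. Hmox1, haem oxygenase, rose by 1.73 ± 0.20 as counted and 1.00 ± 0.13 after correction. Cat, catalase, fell, at 321, 317 and 329.6 CPM at 6 months and 124, 89.6 and 77.8 CPM at 24 months. Cat had a log2 fold change of -1.73 ± 0.21 (adjusted p = 1.9e-06) as counted and of -1.41 ± 0.15 (adjusted p = 3.5e-06) after correction. Gclc, the catalytic subunit of the first enzyme of glutathione synthesis, was at 156, 151 and 202 CPM at 6 months and 30.9, 25.2 and 13.1 CPM at 24 months. Gclc had a log2 fold change of -2.87 ± 0.28 (adjusted p = 3.9e-07) as counted and of -1.35 ± 0.17 (adjusted p = 1.7e-05) after correction, while Gclm, its regulatory subunit, changed sign, at -1.20 ± 0.22 as counted and 1.5 ± 0.13 after correction. Prdx1 changed sign too, at -1.15 ± 0.20 as counted and 0.95 ± 0.17 after correction. Of 3 tested metallothionein genes, 2 rose and 0 fell in both fits. Mt1 rose by 1.33 ± 0.21 as counted and 0.69 ± 0.13 after correction, and Mt3 by 3.29 ± 0.63 as counted and 2.10 ± 0.58 after correction from under 1 CPM, which was 4.19 and 3.23 without 6-month mouse 1, 2.65 as counted without 6-month mouse 3 and 2.60 without 24-month mouse 3.

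In energy metabolism, glycolysis was higher in 11 of 14 genes and lower in 1 as counted, and in 9 and 1 with the correction (medians 1.64 and 0.51). Over all genes 37.9% were called higher as counted and 28.2% with the correction. Eno1, an enolase, was at 165, 172 and 150.1 CPM at 6 months and 585, 760.1 and 1245 CPM at 24 months. Eno1 had a log2 fold change of 2.41 ± 0.26 (adjusted p = 8.3e-07) as counted and of 0.99 ± 0.14 (adjusted p = 6.0e-05) after correction. Pgam1 and Gpi1, a mutase and an isomerase of the pathway, rose by 1.52 ± 0.20 as counted and 0.89 ± 0.11 after correction and by 1.96 ± 0.22 as counted and 0.86 ± 0.15 after correction. Hk1, which takes up glucose as its phosphate, rose by 1.92 ± 0.22 as counted and 0.97 ± 0.10 after correction, and by 0.37 with GC content from the longest transcript. The 12 tested mitochondrially encoded proteins have a median GC content of 37.4%. None was called higher and 8 lower as counted (median -1.03), and 9 higher and 0 lower with the correction (median 0.59), so their direction rests on the correction. mt-Co1, a subunit of cytochrome oxidase, was at 7147, 7289 and 6410.1 CPM at 6 months and 2528, 2309 and 3368 CPM at 24 months. mt-Co1 had a log2 fold change of -1.35 ± 0.23 (adjusted p = 5.6e-05) as counted and of 0.63 ± 0.23 (adjusted p = 0.03) after correction. Its corrected call was lost without 6-month mouse 1, 6-month mouse 3 or 24-month mouse 3 (0.55, 0.49 and 0.18). mt-Nd1 and mt-Co3 changed sign likewise, at -1.05 ± 0.22 as counted and 0.54 ± 0.12 after correction and at -0.80 ± 0.22 as counted and 0.71 ± 0.17 after correction. Of 73 nuclear subunits of the respiratory chain, 33 were called higher and 25 lower as counted, and 25 and 23 with the correction (medians 0.36 and -0.06).

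Among sirtuins, deacetylases studied in ageing, 5 of 7 were called higher and 1 lower as counted, and 0 and 2 with the correction (medians 1.11 and -0.15). Sirt1 was at 27.7, 25.7 and 32.6 CPM at 6 months and 3.29, 4.07 and 1.05 CPM at 24 months. Sirt1 had a log2 fold change of -3.30 ± 0.31 (adjusted p = 2.6e-07) as counted and of -0.63 ± 0.21 (adjusted p = 0.019) after correction. Its corrected call was lost without 6-month mouse 3 or 24-month mouse 1 (-0.59 and -0.60). Sirt7 changed sign, at 1.52 ± 0.25 as counted and -0.39 ± 0.13 after correction, and its corrected call was lost without 6-month mouse 1 or 3 (-0.34 and -0.35) and with GC content over all transcripts (-0.28).

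Housekeeping groups are given by counts. Of 81 cytosolic ribosomal protein genes, 24 were called higher and 27 lower as counted, and 24 and 37 with the correction (medians -0.05 and -0.22). Of 34 constitutive proteasome genes, 11 and 16 were called, and 14 and 6 with the correction (medians -0.17 and 0.26). Splicing factors were lower as counted, 7 higher and 18 lower of 26 (median -1.76), and were not with the correction, 8 and 6 (median -0.03). Endoplasmic reticulum chaperones gave 4 higher and 8 lower of 18 as counted and 6 and 5 with the correction (medians -0.39 and 0.11), and heat shock proteins 5 and 7 of 16, then 3 and 7 (medians -0.41 and -0.53). Cholesterol synthesis gave 7 and 10 of 19, then 9 and 3 (medians -0.57 and 0.27). Circadian genes gave 6 and 7 of 18, then 3 and 5 (medians 0.04 and -0.07), with the time of day not given in the labels. Immediate early genes turned from 10 higher and 3 lower of 18 (median 1.03) to 2 higher and 7 lower (median -0.31). The zinc finger genes named Zfp, many of them repressors of transcription, were lower in 220 and higher in 66 of 313 as counted (median -2.15), and lower in 110 and higher in 42 of 312 with the correction (median -0.30), 94 of them lower in both fits.

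**Figure D4:**
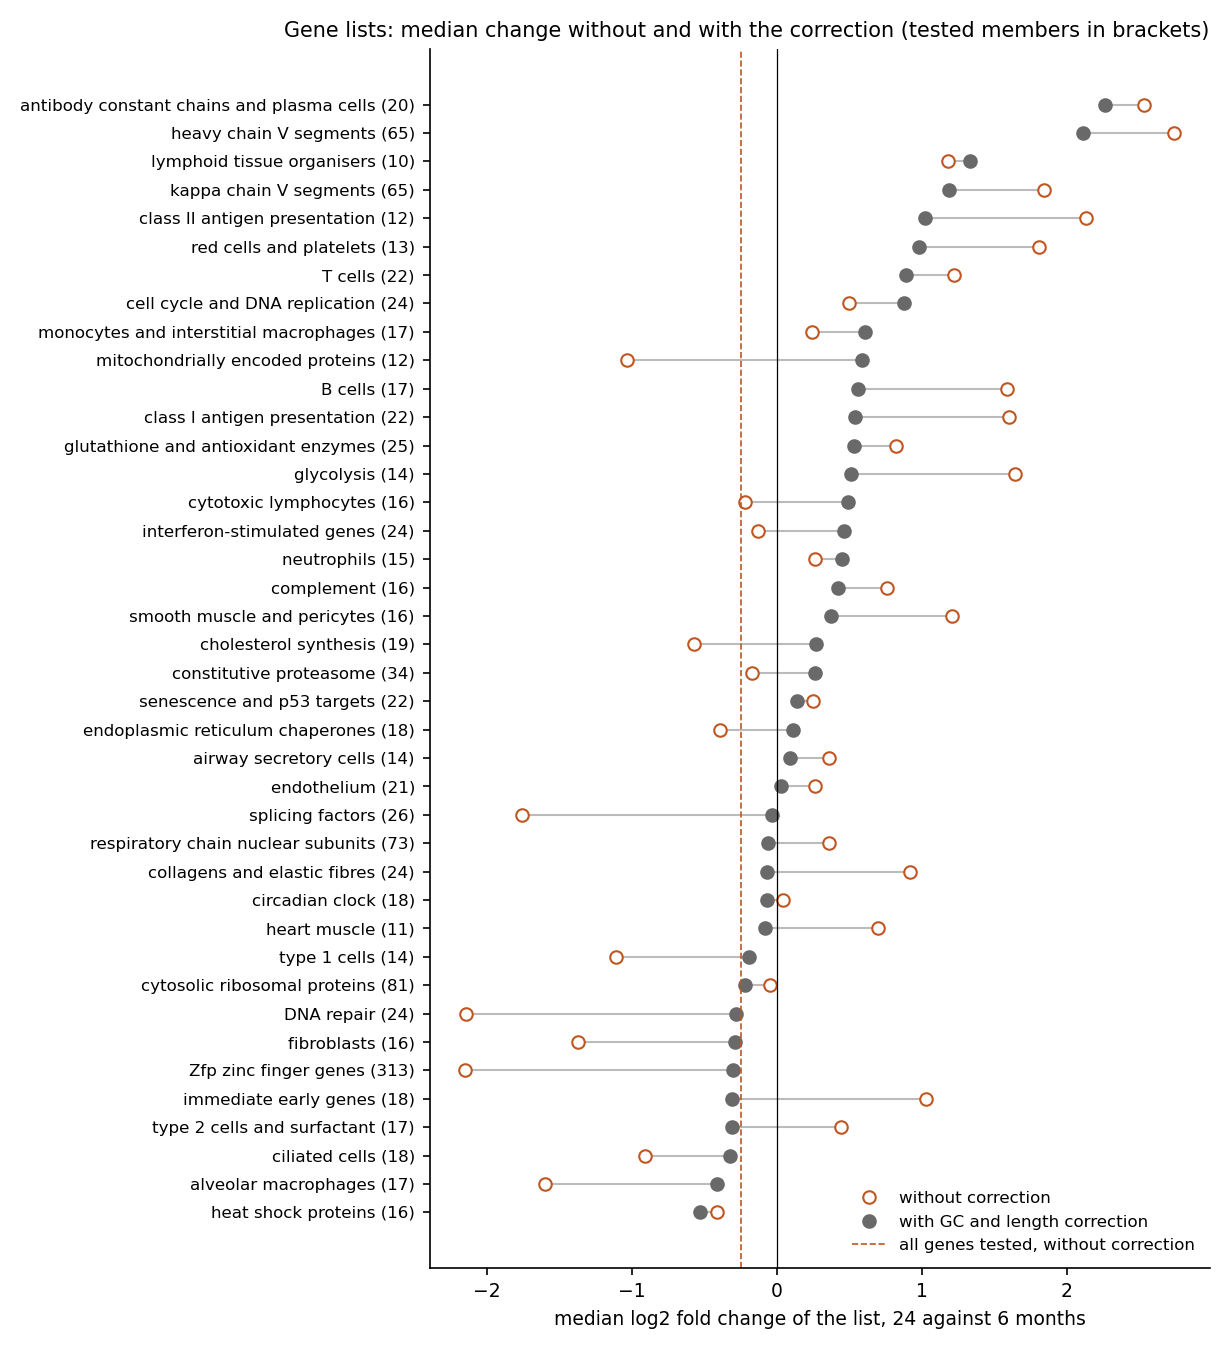
Median log2 fold change, 24 against 6 months, of each gene list with at least 10 tested members, without the correction (open orange) and with it (grey), ordered by the corrected value. Antibody genes and heavy chain V segments have medians above 2 in both fits, while mitochondrially encoded proteins, splicing factors, DNA repair and Zfp genes move by more than 1.5 between the fits.

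The genes with the largest rises that held in both fits, beside the antibody chains and Ccl5, were Dnase1l3, Cd5l, Asprv1, H19 and Tgm3. Dnase1l3, a nuclease that dendritic cells and macrophages secrete, was at 2.20, 1.76 and 0.988 CPM at 6 months and 14.3, 24.9 and 65.7 CPM at 24 months. Dnase1l3 had a log2 fold change of 4.40 ± 0.51 (adjusted p = 1.5e-06) as counted and of 6.10 ± 0.69 (adjusted p = 2.2e-05) after correction. Without 24-month mouse 3 it was at 3.59 and 4.95. Cd5l, a protein that macrophages secrete into plasma, was highest in mouse 2, at 1.76, 3.28 and 0.988 CPM at 6 months and 40.0, 85.7 and 5.86 CPM at 24 months. Cd5l had a log2 fold change of 4.46 ± 0.97 (adjusted p = 0.00093) as counted and of 4.21 ± 1.06 (adjusted p = 0.0081) after correction, and 3.53 and 3.28 without that mouse. Asprv1, a protease known from skin and from neutrophils, was at 0.715, 0.706 and 0.674 CPM at 6 months and 7.0, 8.36 and 39.2 CPM at 24 months. Asprv1 had a log2 fold change of 4.67 ± 0.59 (adjusted p = 3.5e-06) as counted and of 3.50 ± 0.52 (adjusted p = 8.7e-05) after correction. Without 24-month mouse 3 it was still called, at 3.45 and 2.49. H19, an imprinted noncoding RNA of fetal tissues and muscle, rested on 24-month mouse 3, at 0.825, 0.706 and 0.719 CPM at 6 months and 2.39, 2.18 and 64.9 CPM at 24 months. H19 had a log2 fold change of 4.92 ± 1.14 (adjusted p = 0.0014) as counted and of 3.36 ± 1.17 (adjusted p = 0.035) after correction. Without that mouse it was 1.60 as counted and 0.41, not called, with the correction, and the corrected call was lost too without any 6-month mouse (3.29 to 3.42). Tgm3, a transglutaminase of skin, was led by the same mouse, at 0.440, 0.151 and 0.225 CPM at 6 months and 1.32, 1.09 and 5.39 CPM at 24 months. Tgm3 had a log2 fold change of 3.19 ± 0.65 (adjusted p = 0.0003) as counted and of 4.01 ± 0.74 (adjusted p = 0.00042) after correction, and 2.14 and 2.72 without it.

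The 10 largest falls that held in both fits included Erg, described above. Ntn4, a netrin laid down in basement membranes, was at 123, 112 and 135 CPM at 6 months and 22.1, 13.2 and 9.02 CPM at 24 months. Ntn4 had a log2 fold change of -3.05 ± 0.27 (adjusted p = 1.9e-07) as counted and of -3.09 ± 0.20 (adjusted p = 9.0e-08) after correction. Rarb, a retinoic acid receptor, was at 8.75, 9.43 and 8.04 CPM at 6 months and 1.07, 0.872 and 0.468 CPM at 24 months. Rarb had a log2 fold change of -3.39 ± 0.29 (adjusted p = 1.2e-07) as counted and of -3.09 ± 0.26 (adjusted p = 5.8e-07) after correction, and -2.20 with GC content from the longest transcript. Tshz1, a zinc finger homeobox gene, was at 36.4, 32.7 and 38.5 CPM at 6 months and 4.03, 5.82 and 1.99 CPM at 24 months. Tshz1 had a log2 fold change of -3.14 ± 0.29 (adjusted p = 2.4e-07) as counted and of -3.29 ± 0.25 (adjusted p = 3.4e-07) after correction. Zfp366, a zinc finger gene of dendritic cells, was at 8.09, 13.1 and 13.2 CPM at 6 months and 0.576, 0.727 and 0.351 CPM at 24 months. Zfp366 had a log2 fold change of -4.31 ± 0.62 (adjusted p = 1.2e-05) as counted and of -3.92 ± 0.68 (adjusted p = 0.00036) after correction. These 4 genes lie in GC deciles whose uncorrected medians were -0.67, 0.09 and 0.80. Clec12b, a lectin-like inhibitory receptor, was at 4.79, 3.58 and 5.75 CPM at 6 months and 0.0823, 0.218 and 0 CPM at 24 months. Clec12b had a log2 fold change of -5.28 ± 0.56 (adjusted p = 7.3e-07) as counted and of -3.59 ± 0.52 (adjusted p = 5.5e-05) after correction. Chp2, a calcium-binding protein, Ildr2, a membrane protein, Btnl9, a butyrophilin-like protein of endothelium, and Prg4, a lubricating proteoglycan, had log2 values of -3.30 ± 0.49 as counted and -3.34 ± 0.48 after correction, -3.34 ± 0.52 as counted and -3.97 ± 0.62 after correction, -4.12 ± 0.57 as counted and -3.22 ± 0.56 after correction and -5.12 ± 0.95 as counted and -3.12 ± 1.14 after correction, in this order. Leaving out 1 mouse moved Clec12b and these 4 genes: Clec12b to -6.43 and -4.75, Chp2 to -4.49 and -4.51, and Btnl9 to -5.28 and -4.39 without 24-month mouse 2, and Ildr2 to -5.10 and -5.90 and Prg4 to -6.24 and -4.14, not called, without 24-month mouse 1. Prg4 also lost its corrected call without 4 of the other 5 mice (-3.08 to -2.59). With GC content from the longest transcript, Ildr2 was at -1.87 and Btnl9 at -2.14.

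Some genes were read at one age and hardly at the other. Ccdc150 had 52, 48 and 94 reads in the 6-month mice and 2, 0 and 0 in the 24-month mice. Slc10a5 had 62, 40 and 69 reads and then 0, 1 and 0, and Veph1 had 48, 60 and 55 reads and then 0, 2 and 0. All 3 have GC contents of 43.7% to 44.9%, among the genes lower by the slope. In the other direction, Clec4f, a receptor of liver macrophages, had 0 reads in all 6-month mice and 19, 354 and 0 in the 24-month mice. A count of 0 allows up to 3 reads, which is 0.135 to 0.165 TMM-scaled CPM in the 6-month libraries, a limit that covers counting error only.

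Genes of other tissues that a lung sample can include were read beside these. Genes of squamous epithelium, as in oesophagus and skin, were high in 24-month mouse 3. The summed level of the 8 tested genes of this list of 12 was 23.6, 18.6 and 21.2 CPM at 6 months and 21.7, 27.9 and 867 CPM at 24 months. Of these 8 genes 6 were called higher and 0 lower as counted, and 2 and 1 with the correction (medians 3.58 and 2.07). Krt4, a keratin of oesophagus, was at 0.770, 0.504 and 0.225 CPM at 6 months and 0.247, 0.872 and 506 CPM at 24 months. Krt4 had a log2 fold change of 8.42 ± 2.5 (adjusted p = 0.011) as counted and of 6.86 ± 2.44 (adjusted p = 0.042) after correction. Without 24-month mouse 3 it was at 0.23 and -0.94, not called, and the corrected call was lost on leaving out any 6-month mouse too (6.48 to 7.28). As counted it was not called without 6-month mouse 2 or 3 (8.17 and 7.76). Lor, the cornified envelope protein loricrin, was at 0.330, 0.353 and 0.314 CPM at 6 months and 0.741, 0.727 and 186 CPM at 24 months, called as counted and not with the correction. Lor had a log2 fold change of 7.51 ± 2.13 (adjusted p = 0.0086) as counted and of 4.66 ± 1.83 (adjusted p = 0.058) after correction, and without that mouse at 1.13 and -0.21. Its corrected value was called without 24-month mouse 1 (5.28) or 2 (5.27). Sprr1a rose by 3.10 ± 0.83 as counted and 2.06 ± 0.76 after correction, and by 1.48 and 0.73 without it, not called. The corrected call was lost on leaving out any 6-month mouse as well (1.68 to 2.33), and the uncorrected value was 2.45 without 6-month mouse 3. Cnfn and Crct1, of the same tissue, had 0 reads in all other 5 libraries of this comparison and 323 and 97 reads in 24-month mouse 3. The part of squamous tissue in the antibody, Asprv1, Tgm3 and H19 values of that mouse was not tested; the values without it are given above.

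**Figure D5:**
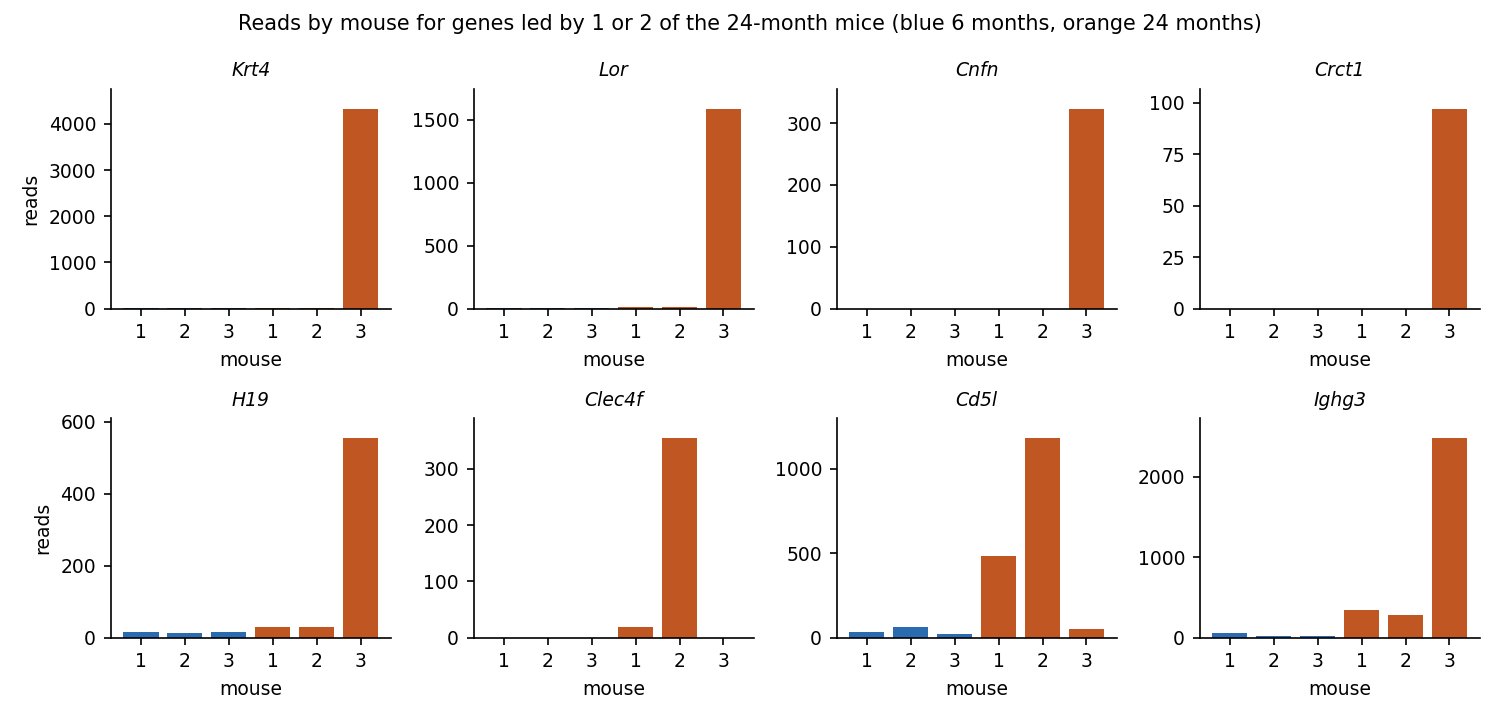
Reads of 8 genes in each mouse at 6 months (blue) and 24 months (orange), on a linear scale that starts at 0. Krt4, Lor, Cnfn, Crct1 and H19 are almost wholly from 24-month mouse 3, Clec4f and Cd5l are highest in mouse 2, and Ighg3 is highest in mouse 3 but above all 6-month mice in the other two.

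Red cell and platelet genes were higher in 8 and lower in 3 of 13 as counted, and in 8 and 1 with the correction (medians 1.81 and 0.98). Hba-a1, an alpha globin with a near-identical copy, was at 581, 658 and 811 CPM at 6 months and 2386, 2004 and 4586 CPM at 24 months. Hba-a1 had a log2 fold change of 2.13 ± 0.31 (adjusted p = 1.2e-05) as counted and of 0.90 ± 0.19 (adjusted p = 0.0012) after correction. Hbb-bs, a beta globin, moved the other way, at 1173, 1214 and 1654 CPM at 6 months and 1077, 568 and 478 CPM at 24 months. Hbb-bs had a log2 fold change of -0.93 ± 0.29 (adjusted p = 0.0082) as counted and of -1.23 ± 0.27 (adjusted p = 0.0019) after correction. Alas2, which makes haem in red cell precursors, rose by 1.81 ± 0.23 as counted and 1.09 ± 0.19 after correction. Heart muscle genes summed to 797, 596 and 327 CPM at 6 months and 1144, 702 and 1172 CPM at 24 months, so the ages overlapped, with 5 of 11 higher and 2 lower as counted and 2 and 1 with the correction (medians 0.70 and -0.08). Actc1, a cardiac actin, rose by 1.56 ± 0.29 as counted and 0.88 ± 0.23 after correction, and Myl3 by 3.09 ± 0.66 as counted and 1.75 ± 0.60 after correction, or 1.51 and 0.55 without 24-month mouse 3, and the corrected call was lost without 6-month mouse 1 or 3 too (1.52 and 1.67). Adipose genes summed to 132, 55.7 and 29.4 CPM and to 95.1, 71.0 and 170 CPM, and 2 of 8 were called higher and 3 lower as counted, 1 and 0 with the correction (medians 0.05 and -0.41). Of the thymocyte list only 2 genes were tested, Themis and Cd1d1. Their sum was 10.8 to 15.3 CPM at 6 months and 2.81 to 4.94 CPM at 24 months. Of these 2, 0 were called higher and 1 lower as counted, and 1 and 0 with the correction (medians -1.46 and 0.50). Rag1, Rag2, Dntt and Ptcra were not tested and are not in the sum, so it gives no level of thymocytes. All 4 Y-linked genes were lower as counted and 2 with the correction (medians -2.99 and -0.38). Ddx3y was at 56.1, 46.8 and 56.8 CPM at 6 months and 6.01, 6.91 and 1.41 CPM at 24 months. Ddx3y had a log2 fold change of -3.44 ± 0.44 (adjusted p = 4.2e-06) as counted and of -1.19 ± 0.19 (adjusted p = 0.00016) after correction, at the lowest GC content of the genes named here, 36.1%.

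Between 6 and 3 months 0 of 16042 genes (0%) were called by edgeR, 267 (1.66%) had an unadjusted p under 0.05, DESeq2 called 6, limma voom 0, and edgeR with the correction called 1 (0.00627%). This contrast is also the exact difference between 24 against 3 months and 24 against 6 months, so as counted no gene's change to 24 months differed past edgeR's threshold between the bases. Against 12 months, which shares the 24-month libraries with the comparison above, 12791 genes were called (79.7%), and 6642 (41.6%) with the correction. Against 3 months, 13277 (82.8%) were called, and 8967 (56.2%) with the correction. Between 12 and 6 months, which shares the 6-month libraries, 325 (2.03%) were called, and 996 (6.24%) with the correction, and the medians of the GC deciles ran from -0.35 to 0.36.

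Against 6 months, 3 of the 20 antibody and plasma cell genes were called higher at 12 months as counted and 5 with the correction, with 0 lower in either fit, beside 0.48% and 3.14% of all genes called higher. Cd3e, Ccl5, Erg and Pdgfra were called in neither fit. Ighm was at 879 ± 148 CPM (SD, n = 3) at 12 months, a log2 fold change of 1.88 ± 0.34 (adjusted p = 0.023) as counted and 1.71 ± 0.33 (adjusted p = 0.016) after correction against 6 months. Igkc was at 583 ± 148 CPM (SD, n = 3), a log2 fold change of 2.02 ± 0.34 (adjusted p = 0.023) as counted and 1.28 ± 0.20 (adjusted p = 0.0089) after correction. The antibody list's median was 0.93 without and 0.59 with the correction in 12 against 6 months, beside 2.53 and 2.26 in 24 against 6 months. Cd3e was at 7.81 ± 1.92 CPM (SD, n = 3) and Ccl5 at 27.0 ± 9.45 CPM (SD, n = 3) at 12 months, with log2 fold changes as counted of 0.45 ± 0.30 (adjusted p = 0.35) and 0.53 ± 0.30 (adjusted p = 0.28). Erg was at 60.1 ± 18.3 CPM (SD, n = 3) and Pdgfra at 145 ± 19.6 CPM (SD, n = 3), with log2 fold changes as counted of -0.61 ± 0.25 (adjusted p = 0.15) and -0.69 ± 0.26 (adjusted p = 0.13). Vegfa was at 467 ± 152 CPM (SD, n = 3), with -0.95 ± 0.25 (adjusted p = 0.059) as counted, and was called in this step with the correction, at -1.06 ± 0.22 (adjusted p = 0.016). Zfp366, one of the largest falls above, was as counted already lower at 12 months, at 1.46 ± 0.529 CPM (SD, n = 3), a log2 fold change as counted of -2.95 ± 0.52 (adjusted p = 0.023) against 6 months. Whether the steps before and after 12 months differ was not tested.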

How the data were processed

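Whole-lung polyA RNA-seq of 12 mice was deposited as 1 table of all genes. Per the submitters' processing notes, the build was mm10 and the tools included HTSeq 0.6.1, STAR 2.5 and TopHat, whose order is unstated. The read counts per gene were deposited raw, as whole numbers. The FPKM columns deposited beside them were checked against those counts (235411 of 235411 values within a relative tolerance of 0.0001) and not used further. The authors' deposited log2 fold changes, p-values and normalized signal columns compare each later age with 3 months and were not used. How strand was used in counting is unstated in the labels, so overlapping and antisense genes cannot be told apart.

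Counts of all 12 libraries were fitted with edgeR 4.0.16 in R 4.3.3 (TMM, filterByExpr, robust quasi-likelihood test, Benjamini-Hochberg adjustment over all genes tested, adjusted p under 0.05), with the contrast of 24 minus 6 months. SE is the absolute log2 fold change over the square root of F. For the correction, each library's deviation of log2 CPM (prior count 2) was smoothed jointly on GC content and log2 length (mgcv 1.9.3, basis dimension 8 per axis) and entered as an offset. GC content was pooled over protein-coding transcripts of GENCODE M21. That definition was chosen after the data were seen (72.5% of variance, against 71.9% and 71.5% for the other two). The smooth also removes any biological difference that runs with GC content or length. The script was tested on simulated data.

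The comparison, its lists and its genes were chosen with earlier results of these data known. Genes were named by a rule: the 10 largest rises and falls past the threshold and without overlap in both fits (by the smaller change, at least 1 CPM and 4 reads); up to 4 genes per described list with the smallest adjusted p in both fits and up to 2 of opposite direction; fixed genes; and the 3 genes with most reads each way among those near 0 at one age. Housekeeping lists, adipose and thymocyte genes are given by counts. Members that moved against their list (4 genes) were added after their values were seen. Some genes that the rule names are not reported here. Alternatives were DESeq2 1.42.0, its scaling (RLE), limma voom 3.58.1, no filter, a mean of at least 1 CPM, a fit of the 6 libraries, a replicate block, each mouse left out, and other GC definitions. Same-numbered mice of the ages were not paired by the labels. No label says that mice of an age came from separate litters or cages, so p-values measure only the spread between these samples. CPM limits cover counting error only.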

Additional observations from a re-analysis of the deposited data

How the results depend on the processing

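As counted, the 13125 calls became 12338 to 13532 under RLE scaling, DESeq2, limma voom, no filter, a mean of at least 1 CPM and a fit of the 6 libraries alone, and 12546 to 13073 on leaving out 1 mouse (higher 5240 to 6091, lower 6875 to 7361). They fell to 8730 (4230 lower) with a correction for GC content alone and to 8456 (3965 lower) with GC content and length. With both corrected, leaving out 1 mouse gave 7176 to 8301 calls (higher 3714 to 4443, lower 3462 to 3858), the 6 libraries alone 7487, and GC content over all transcripts or from the longest, definitions added after the data were seen, 8569 and 8619. Deviations from the age mean correlated at 0.064, -0.175 and -0.225 as counted between same-numbered mice, and at -0.245 to 0.274 between differently numbered ones. No pairing by number was seen, and with 3 mice an age such correlations cannot exclude one. With the replicate block 13003 genes were called as counted and 8206 with the correction. Leaving out a 6-month mouse moved the median over all genes to between -0.48 and -0.47. Without 6-month mouse 1, 2 or 3, 23, 18 and 25 list medians as counted moved by more than the spread between mice of an age. The other 23, 28 and 21 did not. Without 24-month mouse 1, 2 or 3, 6, 6 and 9 moved. With the correction, 3, 2 and 2 list medians moved without 6-month mouse 1, 2 or 3. Between 6 and 3 months DESeq2 called 6 genes, no filter gave 2, either correction 1, and leaving out 1 mouse 0 to 1, with or without the correction. Depth limits the genes below about 1 CPM, where few reads set a value.

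Of the genes named above, these changed sign with GC content alone corrected, as log2 fold changes: Ager -0.13, C3ar1 1.37, Ccr2 1.09, Cdkn2a -0.34, Col13a1 -0.61, Col1a1 -0.13, Col1a2 -0.68, Ctss 1.17, Ddx58 0.19, Ear1 0.43, Ear2 0.80, Emr1 0.52, Foxj1 -0.11, Gclm 1.09, Gzma 0.46, Ifit1 1.38, Lmnb1 -0.29, Mcm6 0.59, Ms4a1 1.46, P4ha1 0.11, Plet1 0.89, Prdx1 1.25, Rgs5 1.07, Rtkn2 0.34, Scgb1a1 0.14, Sftpa1 0.76, Sftpc -0.64, Sirt7 -0.30, Synpo2 0.46, Top2a 0.62, mt-Co1 1.25, mt-Co3 1.60, mt-Nd1 1.26. With GC content and length corrected the changed signs were Ager -0.15, C3ar1 1.66, Ccr2 1.45, Cdkn2a -0.11, Col13a1 -0.69, Col1a1 -0.12, Col1a2 -0.68, Ctss 0.50, Ddx58 0.52, Dnah11 0.77, Emr1 0.61, Foxj1 -0.21, Gclm 1.5, Ifit1 1.23, Lmnb1 -0.46, Mcm6 0.93, Mki67 0.61, Ms4a1 1.45, P4ha1 0.48, Plet1 0.54, Prdx1 0.95, Rgs5 1.29, Rtkn2 0.77, Sftpa1 0.76, Sftpc -0.31, Sirt7 -0.39, Synpo2 1.08, Top2a 1.01, mt-Co1 0.63, mt-Co3 0.71, mt-Nd1 0.54. Leaving out 24-month mouse 3 turned Scgb1a1 to 0.24 as counted (-0.51 to 0.24 over all mice left out) and, with the correction, Ager to 0.02, Krt4 to -0.94 and Lor to -0.21. Corrected values also turned for Cdkn2a (0.21 without 6-month mouse 2, 0.07 without 24-month mouse 2) and Col1a1 (0.05 without 6-month mouse 2), and with GC content over all transcripts for Col1a2 (2.97) and Col3a1 (1.46). The cause was not tested.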
